A study of Mus musculus with 12 samples.

Results

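Gamma delta T cells carry a T cell receptor of 1 gamma and 1 delta chain in place of the alpha and beta chains of most T cells. Transcripts of 7 genes linked to these cells were followed here: the delta constant gene Trdc, the gamma constant genes Tcrg-C1, Tcrg-C2 and Tcrg-C4, and Sox13, Cd163l1 and Zbtb16. Which cells made these transcripts was not tested. The 7 were taken by symbol from a list of gamma delta T cell genes, chosen with earlier results of these data known. The deposited count table held 45706 genes, and all 7 were among the 15922 genes tested. Polyadenylated RNA of murine conventional (con) and regulatory (Trg) T cells was sequenced in wild type (WT) and in the genotype labelled Coro1-/-, the knockout (KO) of Coronin 1A, an actin-binding protein of leukocytes. Each of the 4 groups (WT_con, KO_con, WT_Trg and KO_Trg) had 3 libraries. The labels gave genotype and cell type and no treatment, and strain, age, organ and sorting markers were not given in the sources used here. The labels do not say whether each library came from its own animal. In every group the libraries differed in Xist and Y-linked transcripts, so a group was not 3 repeats of 1 sample, and the p-values measure the spread between libraries.

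A gamma constant gene is joined to a variable and a joining segment by rearrangement of DNA, and the receptor it encodes reaches the cell surface with the CD3 chains. Gamma delta T cells are rare in lymphoid organs and common in skin, gut and other barrier tissues, and those that make IL-17 are set apart from those that make interferon gamma. Sox13 is a transcription factor of the gamma delta lineage, Cd163l1 (SCART1) is a scavenger receptor of IL-17-producing gamma delta T cells, and Zbtb16 encodes PLZF, a transcription factor of innate-like T cells. Zbtb16 is also made by natural killer T cells and by precursors of innate lymphoid cells. In bulk RNA, fewer cells of a type and less RNA per cell cannot be told apart.

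The 3 gamma constant genes are close copies of each other, which bears on how reads are shared between them, so the first 120 coding bases of their first exons are shown, from the GRCm38 reference sequence with the GENCODE M21 annotation. Each is read 5′ to 3′ on the strand of its gene, and capitals mark the bases that differ from Tcrg-C1.
Tcrg-C1, chr13:19214103-19214222, plus strand: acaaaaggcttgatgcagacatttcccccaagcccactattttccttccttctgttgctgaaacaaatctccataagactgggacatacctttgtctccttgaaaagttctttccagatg
Tcrg-C2, chr13:19307432-19307551, minus strand: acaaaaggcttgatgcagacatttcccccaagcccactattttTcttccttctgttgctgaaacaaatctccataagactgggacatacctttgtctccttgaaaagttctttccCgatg
Tcrg-C4, chr13:19344558-19344677, plus strand: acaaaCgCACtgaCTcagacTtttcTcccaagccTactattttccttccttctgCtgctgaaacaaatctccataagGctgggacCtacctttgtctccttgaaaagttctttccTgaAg
Over these bases Tcrg-C2 differed from Tcrg-C1 at 2 positions and Tcrg-C4 differed from it at 14. Over the whole coding sequence the identity of Tcrg-C1 was 97.4% to Tcrg-C2, 78.7% to Tcrg-C4 and 64.4% to Trdc. Of all windows of 50 exonic bases, 65.8% in Tcrg-C1 and 74.6% in Tcrg-C2 occurred nowhere else among the exons searched, against every window in Tcrg-C4, Sox13 and Cd163l1, 99.8% in Zbtb16 and 98.4% in Trdc. With windows of 100 bases the share rose to 91.8% for Tcrg-C1 and 99.4% for Tcrg-C2. The read length was not given in the sources used here, so the split of reads between Tcrg-C1, Tcrg-C2 and the small Tcrg-C3 is uncertain, and that of Tcrg-C4 is not affected at these window lengths.

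In GRCm38, Trdc (ENSMUSG00000104876) lies on chromosome 14 from 54142851 to 54148868, and its span overlaps Gm43434 and Trdv5 on the other strand, which the stranded counting keeps apart. The gamma constant genes lie together on chromosome 13, Tcrg-C1 (ENSMUSG00000076749) from 19214103 to 19217024, Tcrg-C2 (ENSMUSG00000076752) from 19304649 to 19307551 and Tcrg-C4 (ENSMUSG00000076757) from 19344558 to 19352756. Sox13 (ENSMUSG00000070643) is on chromosome 1 from 133382303 to 133424377, and Zbtb16 (ENSMUSG00000066687) is on chromosome 9 from 48654297 to 48836222. Cd163l1 (ENSMUSG00000025461) is on chromosome 7 from 140218267 to 140231145, 13.5 Mb from the targeted gene Coro1a.

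The libraries held 19686870 to 33404302 gene counts each. Coro1a stood at 2124 to 2712 CPM (counts scaled to library size with TMM factors) in the 6 WT libraries and at 20.9 to 47.3 CPM in the 6 KO libraries, and Foxp3 stood at 442.8 to 641.8 CPM in regulatory against 21 to 66.2 CPM in conventional libraries. Both match the labels. Within the conventional libraries, 4 of 5 regulatory T cell markers were called higher in KO, and Foxp3 stood at 29.2 to 66.2 CPM in KO_con against 21 to 27.05 CPM in WT_con. The part of this in the gamma delta gene values was not tested. The summed level of 6 T cell markers was lower in KO than in WT conventional libraries (1949 to 2316 against 3063 to 3352 CPM), and the regulatory libraries also held B cell markers at 8599 to 10470 CPM, against 488.1 to 609.5 CPM in the conventional ones. Of the conventional libraries, 4 held Xist at 100 CPM or more (2 per genotype) and 2 held Y-linked transcripts (1 per genotype), while 4 regulatory libraries held Y-linked transcripts (2 per genotype) and 2 held both. Those 2, WT_Trg replicate 3 and KO_Trg replicate 1, each had Xist and Y-linked transcripts at 10 CPM or more, so regulatory results are also given without them where they change.

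All 7 genes were higher in KO than in WT conventional T cells, by 3.88-fold for Zbtb16 to 21.4-fold for Cd163l1, and the 3 KO_con libraries lay above the 3 WT_con libraries for each gene. The 7 were chosen with earlier results of these data known, so the count is a description and not an independent finding. In regulatory T cells 2 of the 7, Tcrg-C1 and Sox13, were called higher in KO, and the genotype effect was smaller than in conventional cells for all 7, a difference called for 6, where 12.4% of all tested genes were called in that direction. A gene is called where edgeR's quasi-likelihood F test gave a Benjamini-Hochberg adjusted p under 0.05 over all genes tested. In conventional cells 23.3% of all tested genes were called higher and 25.4% lower in KO, and 28.1% had all KO above all WT libraries, and in regulatory cells these shares were 4.01%, 3.82% and 13.2%. The median log2 fold change of the 7 genes was 2.86 in conventional and 1.09 in regulatory cells, beside -0.05 and 0.00 over all genes tested. With counts scaled instead to 6 T cell genes, the T cell markers above (Cd3d, Cd3e, Cd3g, Cd5, Cd6 and Lat), all 7 were called higher in both cell types. The median of all genes then shifted to 0.53 in each.

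**Figure D1:**
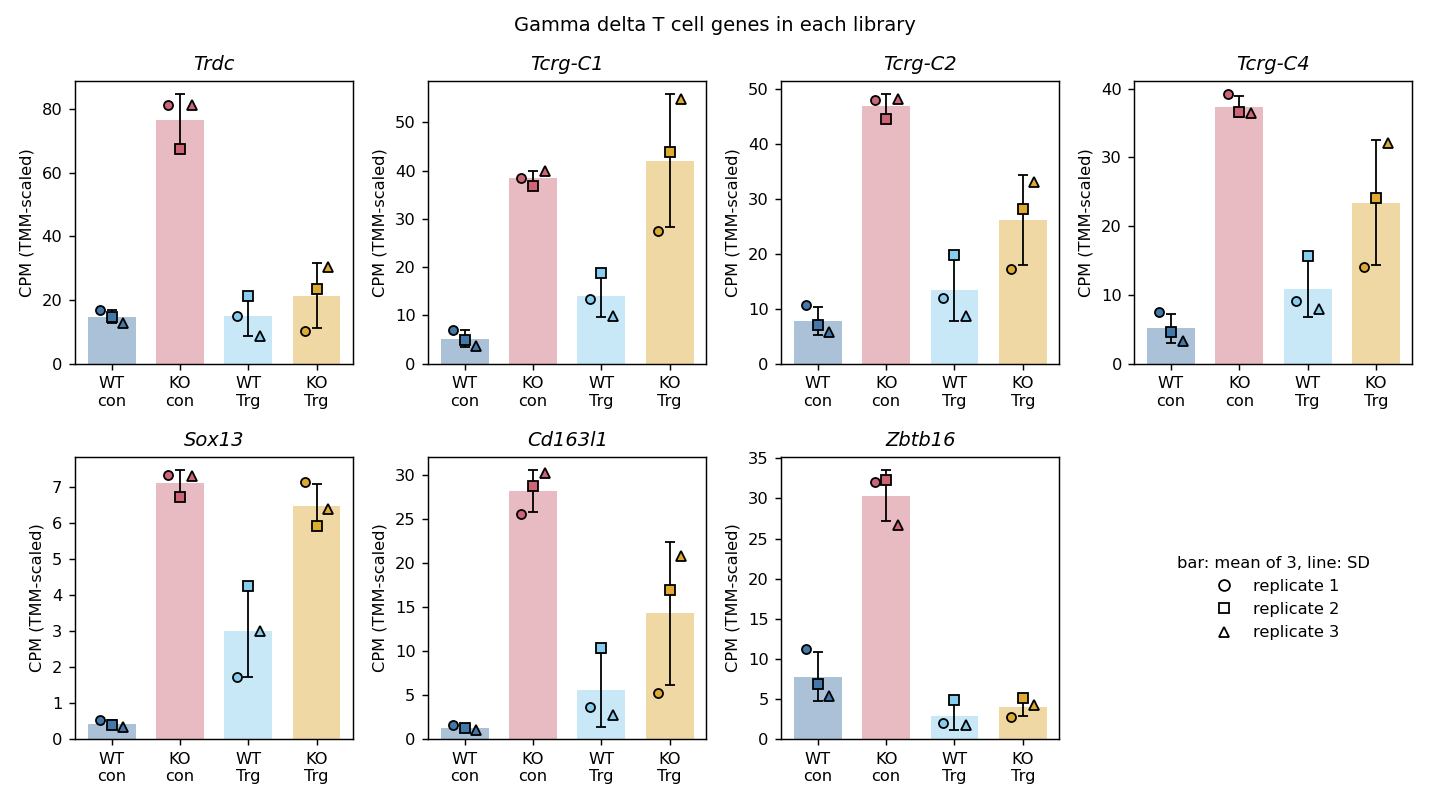
TMM-scaled CPM (vertical axes, each from 0) of the 7 genes in the 12 libraries, with bars for the mean of 3 libraries, lines for the SD and symbols for replicates 1 to 3. The KO_con libraries stand above the WT_con libraries in every panel, and KO_Trg lies as high as KO_con for Tcrg-C1 and Sox13 and far below it for Trdc and Zbtb16.

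Trdc encodes the constant part of the delta chain, of which the mouse has a single copy. In conventional libraries it stood at 16.9, 14.6 and 12.7 CPM in WT_con and at 81.2, 67.6 and 81.3 CPM in KO_con. Every KO library was above every WT library, and the log2 fold change was 2.38 (SE 0.37, edgeR adjusted p = 0.0003532). In regulatory libraries Trdc stood at 14.8, 21.2 and 8.57 CPM in WT_Trg and at 10.2, 23.5 and 30.3 CPM in KO_Trg. These 2 groups overlapped, with KO replicate 1 among the WT values, and the log2 difference of 0.52 (SE 0.36) had an adjusted p of 0.3903. KO conventional cells were the one group with a high Trdc level, and WT_con, WT_Trg and KO_Trg overlapped, at means of 14.7 ± 2.09, 14.9 ± 6.32 and 21.3 ± 10.2 CPM (SD, n = 3).

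Tcrg-C1 lies downstream of the variable segments Tcrg-V4 to Tcrg-V7, and its conventional WT libraries held 6.997, 4.96 and 3.59 CPM against 38.6, 36.9 and 39.9 CPM in KO. The groups were apart, with a log2 fold change of 2.89 (SE 0.30, edgeR adjusted p = 2.844e-05). Its regulatory libraries held 13.4, 18.8 and 9.99 CPM in WT_Trg and 27.5, 43.8 and 54.8 CPM in KO_Trg. Here too each KO library exceeded each WT library and the log2 fold change was 1.58 (SE 0.28, edgeR adjusted p = 0.009526). That call was lost with only the regulatory groups in the fit (1.59, adjusted p = 0.05021) and without the 4 libraries that held both Xist and Y-linked transcripts at 1 CPM or more (1.54, adjusted p = 0.07517). In order of level, WT_con and WT_Trg came first and KO_con (38.5 ± 1.53 CPM) and KO_Trg (42.0 ± 13.8 CPM, SD, n = 3) overlapped at the top.

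Tcrg-C2, with its joining segment Trgj2 and the variable segment Trgv2, is read from the opposite strand to Tcrg-C1 and Tcrg-C4, and stood at 10.6, 7.01 and 5.77 CPM in WT_con and at 48.1, 44.6 and 48.3 CPM in KO_con. That is a log2 fold change of 2.59 (SE 0.32, edgeR adjusted p = 9.062e-05) between groups that did not overlap. In regulatory libraries it stood at 11.9, 19.8 and 8.73 CPM in WT_Trg and at 17.2, 28.2 and 33.1 CPM in KO_Trg. WT replicate 2 lay above KO replicate 1, and the log2 difference of 0.95 (SE 0.31) did not pass the threshold, at an adjusted p of 0.08275. It did pass without WT_Trg replicate 2 (1.35, adjusted p = 0.04) and without KO_Trg replicate 1 (1.18, adjusted p = 0.04917).

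Tcrg-C4, at the far end of the locus beside Tcrg-V1, stood at 7.502, 4.66 and 3.33 CPM in WT_con and at 39.2, 36.6 and 36.4 CPM in KO_con. The conventional groups were apart by 2.86 on the log2 scale (SE 0.36, edgeR adjusted p = 9.504e-05). Regulatory libraries held 9.10, 15.6 and 7.93 CPM in WT_Trg and 14.0, 24.0 and 32.2 CPM in KO_Trg. As for Tcrg-C2, WT replicate 2 exceeded KO replicate 1, and the log2 difference of 1.10 (SE 0.34) had an adjusted p of 0.07012. Without KO_Trg replicate 1 it was 1.36 with an adjusted p of 0.03368, and without both libraries that held Xist and Y-linked transcripts it was 1.17 with an adjusted p of 0.04948.

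Sox13, the lineage transcription factor, had few reads in WT conventional libraries, at 0.54, 0.39 and 0.35 CPM, which is 39 counts in all. KO conventional libraries held 7.34, 6.72 and 7.30 CPM. The log2 fold change was 4.05 (SE 0.31, edgeR adjusted p = 4.774e-06), and the spread within KO_con was small beside the gap. In regulatory libraries Sox13 stood at 1.73, 4.27 and 2.996 CPM in WT_Trg and at 7.13, 5.93 and 6.38 CPM in KO_Trg. Every KO library was above every WT library, with a log2 fold change of 1.09 (SE 0.26, edgeR adjusted p = 0.02687). That call was lost without KO_Trg replicate 1 (1.01, adjusted p = 0.07346) and without KO_Trg replicate 3 (1.10, adjusted p = 0.06698), and also without both libraries with Xist and Y-linked transcripts at 10 CPM or more (0.99, adjusted p = 0.08644). It was lost as well without the 4 libraries with both at 1 CPM or more (0.58, adjusted p = 0.2931), with only the regulatory groups in the fit (1.10, adjusted p = 0.1108), with a replicate block (1.11, adjusted p = 0.05349) and at a threshold of 0.01. KO_con and KO_Trg, at 7.12 ± 0.35 and 6.48 ± 0.61 CPM (SD, n = 3), overlapped at the top of the order, above WT_Trg and then WT_con.

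Cd163l1, the scavenger receptor, had the largest genotype difference of the 7 in conventional cells, within its error of that of Sox13. Its level was 1.58, 1.34 and 1.03 CPM in WT_con, from 120 counts in all, and 25.6, 28.7 and 30.3 CPM in KO_con. No KO library came near a WT library, and the log2 fold change was 4.42 (SE 0.59, edgeR adjusted p = 0.0001333). Regulatory libraries held 3.68, 10.4 and 2.74 CPM in WT_Trg and 5.25, 16.9 and 20.8 CPM in KO_Trg. Libraries of 1 genotype spread widely here, with WT replicate 2 above KO replicate 1, and the log2 difference of 1.33 (SE 0.51) had an adjusted p of 0.1263. Leaving out WT_Trg replicate 2 gave 2.18 (adjusted p = 0.04018), leaving out KO_Trg replicate 1 gave 1.73 (adjusted p = 0.04195), and leaving out both libraries with Xist and Y-linked transcripts gave 1.37 (adjusted p = 0.0399).

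Zbtb16 differed from the other 6 in its order of groups. Conventional libraries held 11.2, 6.88 and 5.35 CPM in WT_con and 32.1, 32.2 and 26.6 CPM in KO_con. The log2 fold change was 1.96 (SE 0.36, edgeR adjusted p = 0.001025), the smallest of the 7 and within its errors of that of Trdc. Regulatory libraries held 2.06, 4.88 and 1.80 CPM in WT_Trg and 2.78, 5.14 and 4.25 CPM in KO_Trg. Those groups overlapped, with a log2 difference of 0.46 (SE 0.38, adjusted p = 0.4805), and both regulatory groups lay below both conventional groups.

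Replicates moved together across the genes. WT_con replicate 1 was the highest and WT_con replicate 3 the lowest of its group for all 7 genes, and WT_Trg replicate 2 was the highest of its group for all 7. KO_Trg replicate 1 was the lowest of its group for 6 of the 7 and the highest for Sox13. The 7 values of 1 library are therefore not 7 independent measurements of a condition.

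The difference between the genotype effects was tested as an interaction term, and it was below 0 for all 7 genes and called for 6. It was -1.86 (SE 0.51, adjusted p = 0.02286) for Trdc, -1.32 (SE 0.40, adjusted p = 0.03899) for Tcrg-C1, -1.64 (SE 0.44, adjusted p = 0.02142) for Tcrg-C2 and -1.76 (SE 0.48, adjusted p = 0.02378) for Tcrg-C4. For Sox13 it was -2.96 (SE 0.40, adjusted p = 0.000702), for Cd163l1 -3.09 (SE 0.75, adjusted p = 0.01461), and for Zbtb16, which was not called, -1.50 (SE 0.52, adjusted p = 0.06029). Without WT_con replicate 2 or WT_con replicate 3 the calls fell from 6 to 2, those of Sox13 and Cd163l1, and without WT_Trg replicate 2 they fell to 3. With limma-voom the calls of Cd163l1 (adjusted p = 0.06053) and Tcrg-C1 were lost.

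**Figure D2:**
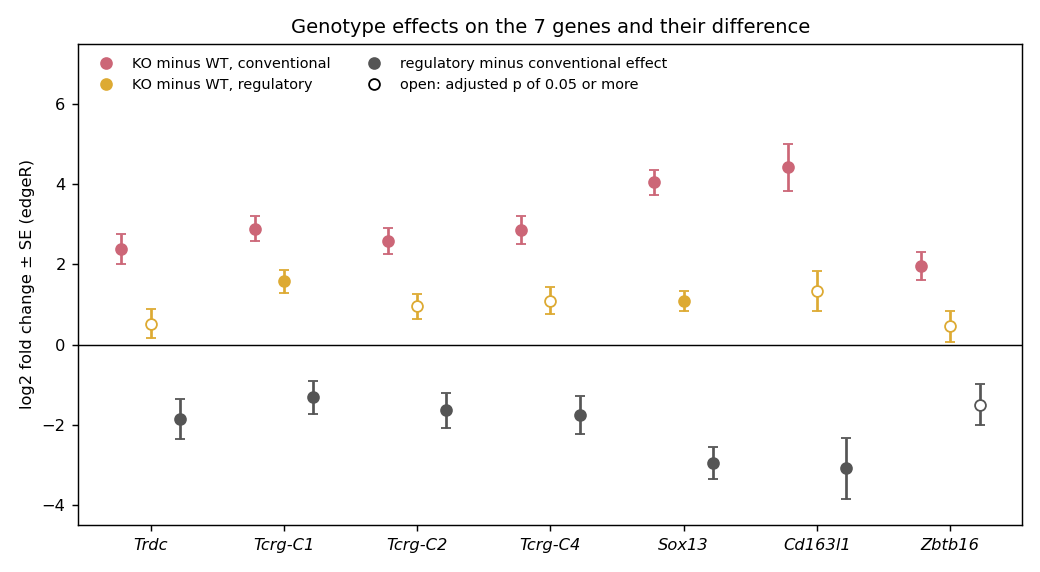
Log2 fold change ± SE from edgeR (vertical axis) for the 7 genes, with KO against WT in conventional cells, KO against WT in regulatory cells, and the regulatory minus the conventional effect, open where the adjusted p was 0.05 or more. The conventional effects run from 1.96 to 4.42 and are all filled, while 2 of the regulatory effects are filled.

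Markers of several other cell types were higher in KO conventional cells, where 23.3% of all tested genes were called higher (4.01% in regulatory cells). Of 10 NK cell markers, 10 were called higher in KO conventional cells, and their sum rose from 66.5 to 83.6 CPM in the WT_con libraries to 341.8 to 654 CPM in KO_con. The neutrophil sum was 0.88 to 2.05 CPM in WT_con and 206.6 to 414.8 CPM in KO_con, with 8 of 8 markers called higher, and the macrophage and monocyte sum was 276.5 to 407.6 against 1636 to 3564 CPM, also with 8 of 8. Basophil and mast cell markers, 6 of 6 called higher, summed to 3.42 to 7.69 CPM in WT_con and 28.9 to 47.0 CPM in KO_con. Of the plasma cell, dendritic cell, B cell and erythroid markers, 4 of 4, 6 of 7, 6 of 7 and 4 of 6 were called higher. The B cell sum nevertheless did not rise, at 528.2 to 583.2 CPM in WT_con and 488.1 to 609.5 CPM in KO_con. In regulatory cells the NK sum was 51.1 to 81.7 CPM in WT and 94.4 to 100.6 CPM in KO with 3 of 10 called, and the neutrophil sum was 45.01 to 87.5 against 97.1 to 246 CPM with 3 of 8 called. The macrophage and monocyte sum was 923.9 to 1164 CPM in WT_Trg and 974.4 to 2076 CPM in KO_Trg, with 0 of 8 called by edgeR and 0 with an unadjusted p under 0.05. Basophil and mast cell markers summed to 4.66 to 6.28 CPM in WT_Trg and 13.3 to 21.55 CPM in KO_Trg, with 2 of 6 called higher. No marker of the lists so far was at 0 in any group. Immature thymocyte markers summed to 14.7 to 19.65 CPM in WT_Trg and 29.9 to 54.8 CPM in KO_Trg, with 2 of 4 tested called higher. In conventional cells they summed to 11.3 to 13.5 CPM in WT_con and 5.11 to 6.10 CPM in KO_con, with 1 called lower. The part of all these markers in the gamma delta gene values was not tested. KO_con replicate 3 had the highest NK and macrophage sums and KO_con replicate 1 the highest neutrophil sum.

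Levels of different genes were compared per kilobase of exon. In KO_con the gamma constant genes stood at 41.6 (Tcrg-C1), 51.4 (Tcrg-C2) and 38.0 (Tcrg-C4) CPM per kb, above Trdc at 19.9, Cd163l1 at 7.33, Zbtb16 at 5.74 and Sox13 at 1.65 CPM per kb. In WT_con the same genes stood at 5.61, 8.54 and 5.24 CPM per kb for the gamma genes and 3.81 for Trdc. The alpha constant gene Trac stood far above them, at 1210 CPM per kb in WT_con, 777.9 in KO_con, 589.9 in WT_Trg and 426.7 in KO_Trg. Tcrg-C3, the remaining gamma constant gene, reached 1.36 CPM per kb in KO_con, below each of the other gamma constant genes in every group.

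Gamma and delta constant transcripts did not keep 1 proportion across the cell types. The ratio of Tcrg-C1 to Trdc counts within a library was 0.41, 0.34 and 0.28 in WT_con, 0.47, 0.55 and 0.49 in KO_con, 0.91, 0.89 and 1.17 in WT_Trg and 2.70, 1.87 and 1.81 in KO_Trg. All 6 regulatory libraries were above all 6 conventional libraries, and the same held for Tcrg-C2 to Trdc (0.80 to 1.69 against 0.45 to 0.66) and for Tcrg-C4 to Trdc (0.61 to 1.38 against 0.26 to 0.54). A two-sided exact permutation test of the log2 ratios, 6 libraries against 6 with both genotypes pooled, gave p = 0.002165 for each gene (0.01082 after Benjamini-Hochberg adjustment over 15 such tests, chosen after the values were seen). That p is the lowest that the 924 splits can give and follows from the separation already seen, so it adds nothing to it. Reads that mapped to more than 1 place made up 9.25 to 11.1% of conventional and 15.8 to 19.5% of regulatory libraries. B cell markers also differed between the cell types, as given above. The part of either in the ratios was not tested. Sex transcripts were not balanced across this comparison either. Among libraries with Y-linked transcripts and no Xist above 100 CPM, the Tcrg-C1 ratio was 0.89 to 1.87 in 4 regulatory and 0.28 to 0.49 in 2 conventional libraries, and the ratios of Tcrg-C2 (0.80 to 1.202 against 0.45 to 0.59) and Tcrg-C4 (0.61 to 1.06 against 0.26 to 0.45) did not overlap either. Within 1 genotype or 1 cell type, 3 libraries against 3 cannot give a p below 0.1, and each of those tests gave 0.1 except that of Tcrg-C2 between KO_con and WT_con, which gave 0.3.

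**Figure D3:**
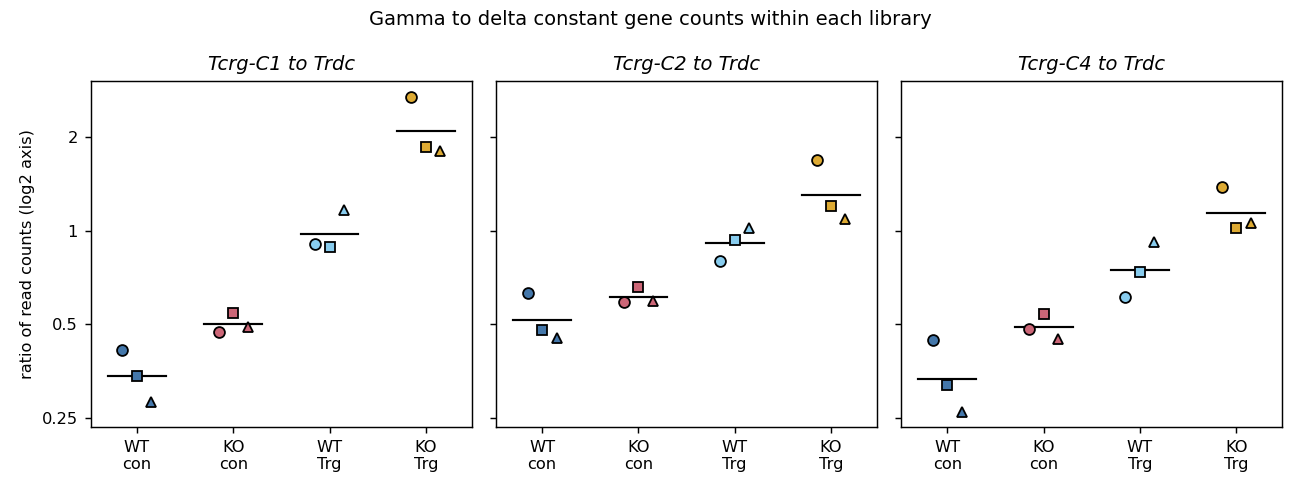
Ratio of gamma to delta constant gene counts within each library (log2 vertical axis) for Tcrg-C1, Tcrg-C2 and Tcrg-C4, with symbols for replicates and lines for the geometric mean of each group. The 6 regulatory libraries lie above the 6 conventional libraries in each panel, and KO_Trg replicate 1 has the highest ratio in all 3.

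The make-up of the gamma constant counts also differed. Tcrg-C1 made up 28.6 ± 1.03% of the counts of the 3 gamma constant genes in WT_con, 31.3 ± 0.70% in KO_con, 37.0 ± 2.22% in WT_Trg and 46.0 ± 0.68% in KO_Trg (SD, n = 3). The share of Tcrg-C2 ran the other way, from 43.3 ± 1.86% in WT_con to 28.7 ± 1.01% in KO_Trg, and that of Tcrg-C4 stayed between 25.2 ± 1.44% and 30.5 ± 1.07%. Since Tcrg-C1 and Tcrg-C2 share sequence, as shown above, part of either share could be misassigned reads, which was not tested.

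The variable and joining segments, from which a receptor gene is assembled, held few counts. Of 22 further gamma and delta segments with a row in the table, 15 passed the count filter. In conventional cells 13 of them were called higher in KO and none lower, beside 23.3% and 25.4% of all tested genes. In regulatory cells edgeR called none in either direction, while 4 had an unadjusted p under 0.05 (3 higher, 1 lower) and DESeq2 called 1 higher. Several segments were near 0 in WT_con and passed the filter through KO_con, so the 13 are given as a description. Trgv2, which had the most counts, held 85, 49 and 35 counts in WT_con, 491, 399 and 448 in KO_con, 28, 115 and 35 in WT_Trg and 80, 148 and 164 in KO_Trg. Its conventional log2 fold change was 2.79 (SE 0.45, edgeR adjusted p = 0.0004555), and its regulatory groups overlapped. Tcrg-V4, the variable segment typical of many IL-17-producing gamma delta T cells, held 79, 36 and 32 counts in WT_con and 333, 338 and 242 in KO_con (log2 fold change 2.44, SE 0.57, adjusted p = 0.004561), with 38, 108 and 19 counts in WT_Trg and 29, 93 and 90 in KO_Trg. Tcrg-V1, beside Tcrg-C4, held 33, 18 and 13 counts in WT_con and 214, 214 and 170 in KO_con (log2 fold change 3.02, SE 0.38, adjusted p = 9.062e-05).

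Among the delta variable segments, 3 are named here after their values were seen. Trdv4 held 3, 3 and 1 counts in WT_con and 99, 75 and 94 in KO_con, a log2 fold change of 5.01 (SE 0.89). It was near 0 in WT_con and passed the count filter through other groups, so no p-value is given for it. In regulatory libraries it held 8, 39 and 4 counts in WT and 13, 76 and 72 in KO, so that WT replicate 2 exceeded KO replicate 1, as it did for Cd163l1. Trdv1 and Trdv2-2, which lie among the alpha variable segments, were the 2 tested segments not called in conventional cells, at 0.29 (adjusted p = 0.51) and 0.63 (adjusted p = 0.09883).

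**Figure D4:**
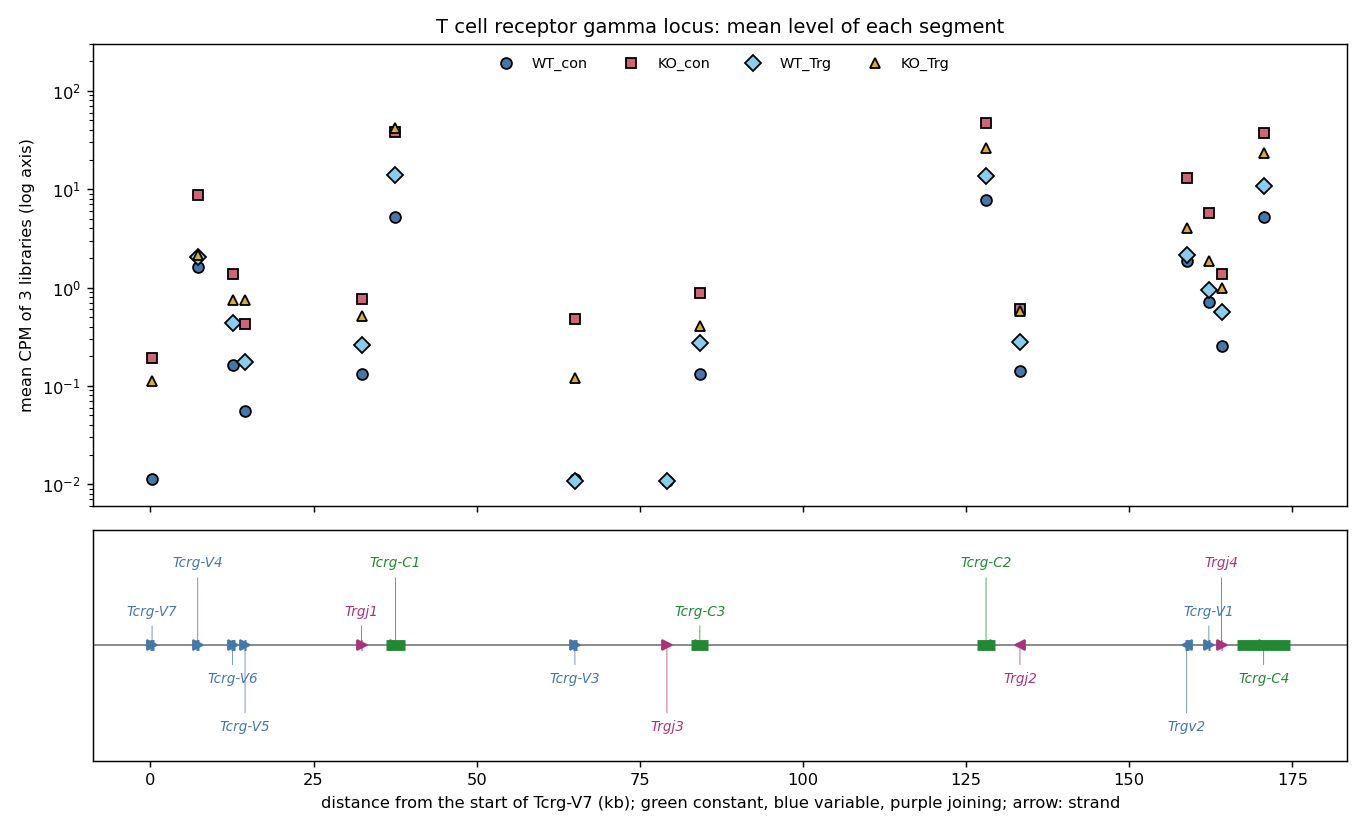
Mean CPM of 3 libraries (log vertical axis) for each segment of the gamma locus by distance from the start of Tcrg-V7 in kb, over a map of constant (green), variable (blue) and joining (purple) segments with arrows for the strand; a group at 0 is not drawn. KO_con is the highest group for most segments, and for Tcrg-C1 and Tcrg-V5 the KO_Trg mean is the higher one.

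Between the cell types the 7 genes differed in direction, in libraries whose Xist and Y-linked transcripts and cell markers were not balanced. Erythroid markers summed to 4528 to 8459 CPM in regulatory and 5.15 to 67.7 CPM in conventional libraries. Plasma cell markers summed to 498.1 to 2137 CPM against 54.5 to 144.6 CPM, and B cell markers differed as given above. The part of such cells in these differences was not tested. In WT, regulatory libraries were called higher than conventional ones for 5 of the 7 and lower for 1, where 39.1% and 33.3% of all tested genes were called in those directions. Sox13 was higher by 2.82 (SE 0.31, adjusted p = 7.535e-06), Cd163l1 by 2.11 (SE 0.58, adjusted p = 0.006027), Tcrg-C1 by 1.44 (SE 0.30, adjusted p = 0.001082), Tcrg-C4 by 1.08 (SE 0.35, adjusted p = 0.01615) and Tcrg-C2 by 0.80 (SE 0.32, adjusted p = 0.04083) on the log2 scale. Zbtb16 fell by 1.40 (SE 0.38, adjusted p = 0.00566), and Trdc differed by 0.01 (SE 0.36, adjusted p = 0.9731). Without WT_con replicate 2, WT_con replicate 3 or WT_Trg replicate 2, 3 genes in place of 5 were called higher. With Xist as a term in the fit the Tcrg-C2 difference was 0.64 and was not called (adjusted p = 0.09785).

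In KO, none of the 7 was called higher in regulatory than in conventional libraries and 3 were called lower, where 36.1% and 31.7% of all tested genes were called. Zbtb16 fell by 2.90 (SE 0.37, adjusted p = 3.516e-05), Trdc fell by 1.85 (SE 0.36, adjusted p = 0.0006895) and Tcrg-C2 fell by 0.84 (SE 0.30, adjusted p = 0.0259). The values for the others were 0.13 for Tcrg-C1, -0.14 for Sox13, -0.68 for Tcrg-C4 and -0.98 for Cd163l1, with adjusted p-values from 0.08524 to 0.69. The Tcrg-C2 call was lost without KO_con replicate 1 (adjusted p = 0.0565), KO_con replicate 3 (0.05565) or KO_Trg replicate 1 (0.08485). These comparisons share their libraries with the genotype comparisons and are not independent of them.

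Other genes of gamma delta T cell biology were read from 7 lists, chosen by function and with earlier results of these data known. In KO conventional cells 23.3% of all tested genes were called higher and 25.4% lower, and in regulatory cells 4.01% and 3.82%. Some listed genes were also counted among the markers above: Ccr2 (macrophage and monocyte), Ncr1, Eomes and Klrb1c (NK cell), and Cd3d, Cd3e and Cd3g (T cell). The alpha beta receptor and CD3 chains moved opposite to the gamma delta genes in conventional cells: 7 of 7 tested were called lower in KO (median log2 fold change -0.55), but with counts scaled to 6 T cell genes, 1 of the 7 was called lower. The largest fall was that of Cd247, the CD3 zeta chain, at -0.97 (SE 0.16, edgeR adjusted p = 0.0004986). Trac, the alpha constant gene, was at 1131 ± 104 CPM in WT and 727.4 ± 58.8 CPM in KO (log2 fold change -0.64, SE 0.18, adjusted p = 0.01338), and Cd3g stood at -0.64 (adjusted p = 0.01306). Under T cell scaling these were -0.05 for Trac and -0.06 for Cd3g, and neither was called. Cd3d, Cd3e and Cd3g are themselves among the 6 scaling genes, so for them that scaling is not a test. Under TMM scaling the count of lower calls was 2 without KO_con replicate 3, 3 without KO_con replicate 1, and 4 without WT_con replicate 2 or 3. In regulatory cells 1 of 7, Cd247, was called lower (-0.58, adjusted p = 0.04719), against 0 without WT_Trg replicate 1 or 2 or KO_Trg replicate 1 or 2 and 6 without WT_Trg replicate 3. The difference between Trbc1 groups there was -0.47 (adjusted p = 0.07621).

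Of 19 tested genes of IL-17-producing gamma delta T cells, 16 were called higher in KO conventional cells and none lower (median 2.38), and 7 were called higher in regulatory cells (median 0.76). Blk, a Src-family kinase that B cells also make, was at 0.96 ± 0.21 CPM in WT_con and 13.9 ± 0.84 CPM in KO_con (log2 fold change 3.85, SE 0.19, edgeR adjusted p = 6.816e-07). In the regulatory libraries, where B cell markers were high, Blk stood at 231 CPM in WT_Trg and 253.9 CPM in KO_Trg. The membrane proteins Tmem176a and Tmem176b rose in both cell types, by 2.68 and 2.42 in conventional and by 1.46 (adjusted p = 0.0002477) and 1.35 (adjusted p = 0.002164) in regulatory cells. In regulatory cells 4 genes in place of 7 were called without KO_Trg replicate 3. Il17a and Il22 did not pass the count filter.

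Genes of interferon-gamma-producing gamma delta T cells, many of which NK cells share, had 14 of 15 called higher in KO conventional cells (median 1.76) and 1, Cd27, called lower (-0.42, adjusted p = 0.01967). That call of Cd27, a costimulatory receptor also found on naive T cells, was lost without WT_con replicate 1, KO_con replicate 1 or KO_con replicate 3, and with counts scaled to T cell genes. The activating receptor gene Klrk1 rose by 2.86, the surface protein gene Ly6c2 by 2.38 and the granzyme gene Gzmb by 3.67 on the log2 scale. In regulatory cells the median was 0.01 and 1 of 15, the chemokine gene Ccl5, was called higher (1.26, adjusted p = 0.04529), a call that was lost when any 1 of the 6 regulatory libraries was left out. The chemokine receptor gene Cxcr3 stood at -0.95 there (adjusted p = 0.09025).

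Lineage regulators had no common direction, with 6 of 18 called higher and 4 lower in KO conventional cells (median 0.04), beside 23.3% and 25.4% of all tested genes. With counts scaled to T cell genes, 11 were called higher and 0 lower. The Notch target Hes1 rose by 2.57 and the lymphotoxin beta receptor gene Ltbr by 3.06, while Lef1, a transcription factor of naive T cells, stood at -0.78 and at -0.20 under T cell scaling, where its call was lost. In regulatory cells 3 were called higher, among them the NF-kappaB subunit gene Nfkb2 (0.70, adjusted p = 0.001269) and the transcription factor gene Runx3 (0.46, adjusted p = 0.005323). Another 2, Tcf12 and Lef1, were called lower, a count that was 1 without WT_Trg replicate 2 and 0 without WT_Trg replicate 1, KO_Trg replicate 1 or KO_Trg replicate 3. Of the innate-like T cell genes linked to PLZF, 12 of 19 were called higher and 2 lower in KO conventional cells (median 1.26). The smallest p-values were those of the memory marker Cd44 (1.26), the NK receptor gene Klrb1b (4.36) and the transcription factor gene Nfil3 (2.24). The 2 lower were Slamf6 and Zbtb7b, and 1 was called without WT_con replicate 1, KO_con replicate 1 or KO_con replicate 3, and 0 under T cell scaling. In regulatory cells 3 were called higher, the clearest being the IL-25 receptor gene Il17rb (1.62, adjusted p = 0.004119), and 2 lower, with Slamf6 at -0.66 (adjusted p = 0.006267) and at -0.13 under T cell scaling, where its call was lost.

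Innate lymphoid cell genes had 8 of 10 called higher in KO conventional cells (median 2.03) and 4 of 10 in regulatory cells (median 1.08), and none lower in either. Ncr1, an activating receptor of NK cells and some innate lymphoid cells, was at 0.69 ± 0.30 CPM in WT_con and 40.4 ± 16.96 CPM in KO_con (log2 fold change 5.86, edgeR adjusted p = 1.533e-06). The IL-9 receptor gene Il9r rose by 1.87 and the stem cell factor receptor gene Kit, which mast cells also express, by 2.25, in the libraries where basophil and mast cell markers were higher, whose part in it was not tested. Arg1 (2.52, adjusted p = 0.002062) and Kit (1.64, adjusted p = 0.003224) had the smallest p-values in regulatory cells. Among 9 tested ligands of gamma delta and innate T cells, 4 were called higher and 2 lower in KO conventional cells, beside 23.3% and 25.4% of all tested genes. The butyrophilin-like genes Btnl6 (2.15) and Btnl4 (1.87) rose from low levels, and H2-T10, a ligand of some gamma delta receptors, stood at -0.35 but at 0.23 under T cell scaling. None of the 9 was called by edgeR in regulatory cells, where 1 had an unadjusted p under 0.05 and DESeq2 called 1 lower.

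**Figure D5:**
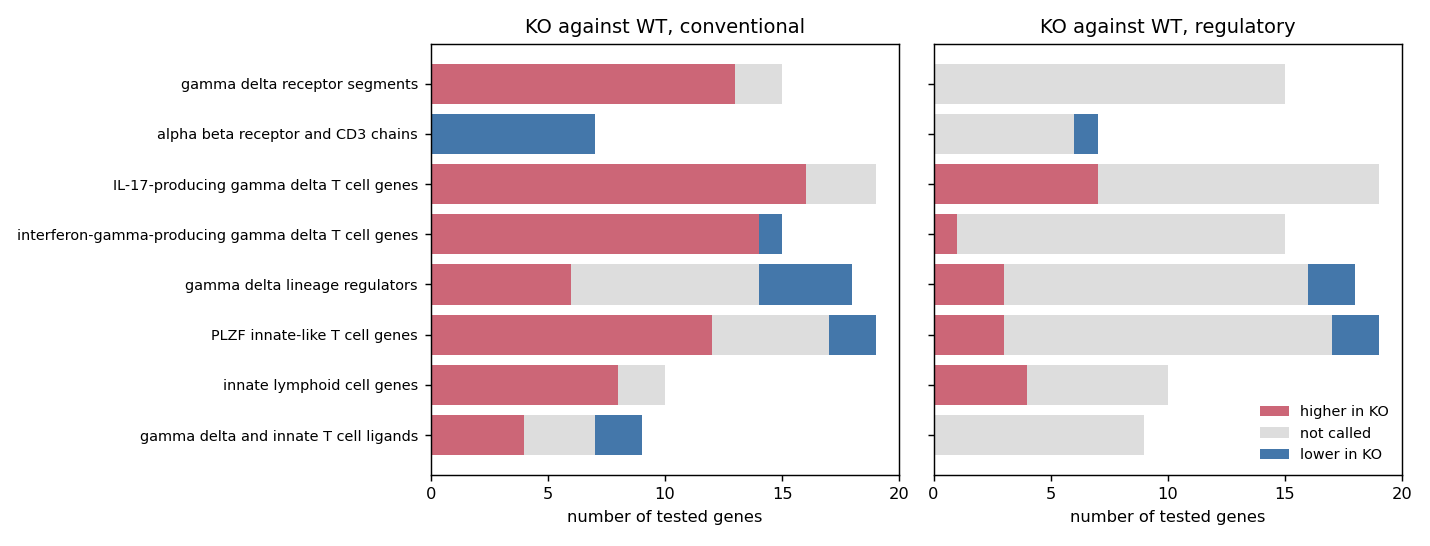
Number of tested genes (horizontal axis) called higher in KO, called lower or not called in 8 lists, for conventional cells on the left and regulatory cells on the right. The 7 alpha beta and CD3 genes are all on the lower side in conventional cells, and the segment list has 13 higher calls there and none in regulatory cells.

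Each of the 7 genes was compared with 12995 genes of mean CPM of 1 or more by the root mean square difference of log2 CPM, centred per gene, over the 12 libraries. The 7 themselves were left out of the genes ranked. Closest to Trdc were Sytl3 (0.30), Atp8a2 (0.35) and Il18rap (0.37), and closest to Tcrg-C1 were Mmp25 (0.15), Il17re (0.24) and Tns4 (0.27). Tcrg-C2 lay nearest to Ccr9 (0.26), Ccl5 (0.26) and Ccr2 (0.28), and Tcrg-C4 to Ccl5 (0.34), Mmp25 (0.34) and Klrb1f (0.38). Sox13 lay nearest to Kcnip3 (0.33), Anxa1 (0.35) and Gm49339 (0.38), and Cd163l1 to the delta segment Trdv4 (0.30) and the related scavenger receptor gene Scart2, listed as 5830411N06Rik (0.37), followed by Mmp25 (0.58). Zbtb16 lay nearest to C030034L19Rik (0.24), Cpne7 (0.41) and Trpm6 (0.44). Within the 7, Tcrg-C2 and Tcrg-C4 were the closest pair (0.19), nearer to each other than to any of the genes ranked. Tcrg-C4 lay 0.35 from Tcrg-C1, and Sox13 and Zbtb16 were the farthest apart (1.88). The 12 libraries share their depth and cell make-up across all genes, so these distances describe the libraries and carry no test.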

How the data were processed

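The deposited table gives raw counts of reads for each Ensembl gene in 12 libraries. The authors mapped reads to GRCm38 by STAR, per the submitters' processing notes, and counted them as reverse-stranded, per the table's name. The annotation release and read length were not given in the sources used here. Symbols from GENCODE M21 matched 45143 of 45706 IDs. The 4 tallies of reads given to no gene (26.2 to 30.5% of a library) were left out.

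One fit in R 4.3.3 with edgeR 4.0.16 held all 12 libraries with a term per group, after filterByExpr (minimum count 10, minimum total 15) and TMM scaling. Genes were tested with the two-sided quasi-likelihood F test, Benjamini-Hochberg adjustment over all 15922 genes and a threshold of 0.05. SEs were taken as log2 fold change over the square root of F. CPM are TMM-scaled, and log2 CPM use a prior count of 2. Alternatives were other scaling, DESeq2 1.42.0, limma-voom 3.58.1, other filters, a replicate block and libraries left out. Leaving out the libraries with Xist and Y-linked transcripts at 10 CPM or more and an Xist term were added, chosen after seeing the data. The fit was also run on simulated data, whose outcome is not given here.

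All 7 genes were named. From each list of related genes, up to 3 with the smallest p in conventional cells and 2 in regulatory cells were named. The 3 most counted receptor segments were also named, with the 3 genes nearest to each of the 7, the 7 themselves left out. The 7 genes and all lists were chosen with earlier results of these data known. No member fell below 11 counts in a library, and counts near that limit the precision of Sox13 in WT conventional cells most.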

Additional observations from a re-analysis of the deposited data

Results flagged for a closer look

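For 6 of the 7 genes the genotype effect differed between conventional and regulatory T cells by a test of that difference itself, the interaction term of the edgeR fit, where 12.4% of all tested genes were called in that direction. Without WT_con replicate 2 or WT_con replicate 3 the count was 2, without WT_Trg replicate 2 it was 3, and at a threshold of 0.01 it was 1. The calls of Cd163l1 and Tcrg-C1 were lost with limma-voom. The regulatory minus the conventional log2 effect was -1.86 for Trdc, -1.32 for Tcrg-C1, -1.64 for Tcrg-C2, -1.76 for Tcrg-C4, -2.96 for Sox13 and -3.09 for Cd163l1. In each case the conventional effect of KO against WT was the larger, and the regulatory estimate was above 0 as well, called for Tcrg-C1 and Sox13. By the same test, 9 of 10 NK cell markers, 5 of 8 neutrophil markers and 5 of 8 macrophage and monocyte markers had a smaller effect in regulatory cells, and their part in these differences was not tested.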

How the results depend on the processing

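In conventional cells all 7 genes were called higher in KO under each of the settings tried there. In regulatory cells the count of 2 higher became 7 with counts scaled to 6 T cell genes, which moves the median of all genes from 0.00 to 0.53, 4 with DESeq2, 0 with only the 2 groups compared in the fit, 1 at a threshold of 0.01, 0 without the 4 libraries with both Xist and Y-linked genes at 1 CPM or more (which leaves 1 library in each regulatory group, assumed to vary like the others), and 1 to 4 with 1 library left out. The replicate block gave 1 higher in regulatory cells, 5 interaction calls in place of 6, and 4 higher in place of 5 between the WT cell types; same-numbered libraries deviated together with correlations from -0.52 to 0.18, so they were not taken as pairs. The interaction calls ranged from 2 to 7 with 1 library left out and numbered 1 at a threshold of 0.01. Regulatory against conventional WT cells gave 3 to 5 higher with 1 library left out, 2 with limma-voom and 3 at a threshold of 0.01, and 0 lower without the 4 libraries. In KO, scaling to T cell genes gave 1 higher and limma-voom gave 5 lower. Directions turned for Zbtb16 in regulatory cells (-0.20 without the 4 libraries), for Sox13 (0.46 with T cell scaling) and Tcrg-C1 (-0.108 without KO_Trg replicate 3, and up to 0.362 without KO_Trg replicate 1) between the KO cell types, and for Trdc between the WT cell types (-0.083 with limma-voom, -0.011 with no filter, -0.013 with the replicate block, -0.25 with an Xist term, and -0.353 to 0.302 with 1 library left out, below 0 without WT_con replicate 3 or WT_Trg replicate 2). T cell scaling also turned H2-T10 in conventional cells (0.23) and Trbc1 (0.036) and Mr1 (0.25) in regulatory cells. The cause was not tested. Leaving out libraries with Xist and Y-linked genes touches no conventional library.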
